A study of Mus musculus with 19 samples.

Results

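Group9 is 1 of 10 sets into which the authors sorted T cells by the likeness of their receptor sequences, and its members are the cells that carry this label in the deposited per-cell table. The label was held by 560 of 41099 cells in the series, or 560 of the 24675 cells that had any receptor label. Of these members, 491 came from tumours and 69 from spleens. The other 9 similarity groups held 7631 cells.

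The series read single CD8 T cells from C57BL/6J mice injected with A223, a squamous cell carcinoma line of C57BL/6 origin, and compared tumours labelled Growing/Progressor with tumours labelled Regressing/Regressor. Tumours were digested with liberase and sorted by flow cytometry for CD8 T cells, and spleens of both states were also read. No mice without A223 are analysed here, and the labels give no age and do not say whether a library is 1 mouse or a pool. There were 9 expression libraries: growing tumours 1 to 3, regressing tumours 1 to 3, growing spleen 3, and regressing spleens 2 and 3. Tumour libraries numbered 1 were made with a 3′ kit and carry no receptor label, so that 4 tumours and 3 spleens bear on Group9. A separate receptor library of regressing tumour 1 is in the series but was not used here. Because the labels do not name separate animals, p-values measure the spread between these libraries only, which may be technical.

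A T cell receptor is a pair of chains, alpha and beta, and the most variable stretch of each, the CDR3, lies where the receptor touches the peptide held by an MHC molecule. Cells that descend from 1 T cell carry the same pair, which is called a clonotype, and receptors with like CDR3 motifs are grouped because they may bind the same peptide. CD8 T cells that meet antigen leave the naive state, become activated and divide, and under lasting exposure they pass into states called exhausted.

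Group9 contained 2 clonotypes that the deposited table names by their CDR3 sequences, 1 in each regressing tumour with receptor labels. Both beta chains and the alpha chain of the tumour 3 clonotype are shown because 88.0% of Group9 tumour cells carried one clonotype or the other, and the alpha chain of the tumour 2 clonotype is given only by its length and ending. They are written as amino acids from the N-terminal end, as the clonotype names give them.
Regressing tumour 2, beta chain: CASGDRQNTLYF
Regressing tumour 3, beta chain: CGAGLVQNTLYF
Regressing tumour 3, alpha chain: CALSEDYSNNRLTL
Both beta chains were 12 residues long, were identical at 8 of 12 positions, and ended in the same 6 residues, QNTLYF. Ahead of that ending stood CASGDR in one and CGAGLV in the other, alike only in the opening C and in a G at the same place. The alpha chain of the tumour 2 clonotype was 13 residues long and ended in TGKLTF, that of the tumour 3 clonotype was 14 long and ended in NNRLTL, and they did not share their last residue. The likeness thus lay mostly in the ending of the beta chain. Since cells were grouped by receptor sequence, this likeness is a description, with no test.

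The ending QNTLYF was not found in Group9 alone. Among the 57 distinct beta chains of the 71 named clonotypes, 4 ended in it and 2 of these were the Group9 chains. The other two were 14 residues long. One, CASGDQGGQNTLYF, belonged to Group4 and was carried by 249 cells of growing tumour 3 and 100 cells of regressing tumour 2. This Group4 chain also began with CASGD, as did the Group9 chain of regressing tumour 2 but not that of regressing tumour 3. The other, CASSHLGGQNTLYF, was in no similarity group and was carried by 128 cells of growing tumour 2. A beta length of 12 was shared by 11 of the 57 chains. The alpha endings occurred in 5 and 4 named clonotypes outside Group9, and 0 of those clonotypes shared a whole alpha or beta chain with it.

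Among the tumours, Group9 cells lay almost wholly in the regressing ones. They numbered 9 of 3177 receptor-labelled cells in growing tumour 2 (0.283%, exact Clopper-Pearson 95% interval 0.130 to 0.537) and 0 of 1296 in growing tumour 3, a count of 0 that allows up to 0.231%. They numbered 290 of 4183 in regressing tumour 2 (6.93%, 6.18 to 7.75) and 192 of 4940 in regressing tumour 3 (3.89%, 3.37 to 4.46). Both regressing tumours stood above both growing tumours, without overlap of their intervals, which cover counting error only. The mean share was 0.142% (SD 0.200, n = 2) over growing tumours, against 5.41% (SD 2.15, n = 2) over regressing tumours, a difference of -5.27 percentage points. The two-sided exact permutation test gave p = 0.3333. This is the smallest value that 2 libraries against 2 can give, so the design cannot pass a threshold of 0.05. Group9 was chosen with its lean towards regressing tumours already known. The difference is therefore a description, and neither the test nor the intervals add support to it. Regressing tumours supplied 482 of the 491 tumour cells, or 98.2% (96.6 to 99.2).

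**Figure D1:**
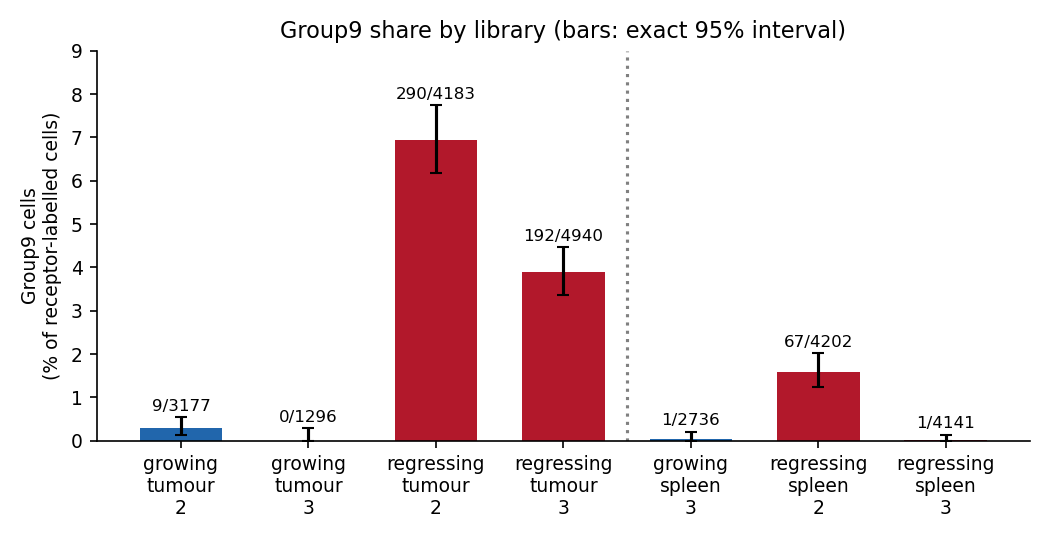
Group9 cells as a percent of receptor-labelled cells in the 7 libraries with receptor labels, tumours left of the dotted line and spleens right of it, growing in blue and regressing in red. Bars carry exact 95% intervals and the counts. Regressing tumours 2 and 3 stand at 6.93% and 3.89%, regressing spleen 2 at 1.59%, and the other 4 libraries at 0.283% or less.

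Each regressing tumour held its own clone. In regressing tumour 2 the clonotype with beta chain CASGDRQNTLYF made up 263 of 290 Group9 cells (90.7%, 86.7 to 93.8) and 6.29% of all labelled cells, rank 2 by size among 22 named clones with at least 20 cells there. In regressing tumour 3 the clonotype with beta chain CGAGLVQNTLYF made up 169 of 192 Group9 cells (88.0%, 82.6 to 92.3) and 3.42% of labelled cells, rank 3 by size among 17. Neither named clonotype was listed in a second tumour among those with receptor labels, and all cells that carried either were in Group9. Both named clonotypes together accounted for 432 of 491 tumour cells (88.0%, 84.8 to 90.7). The larger one alone was 47.0% of all Group9 cells.

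The remaining 59 tumour cells carried the pooled label for clonotypes without a name, 9 of them in growing tumour 2, 27 in regressing tumour 2 and 23 in regressing tumour 3. Their receptor sequences are not in the table used here, so the number of clonotypes behind them was not counted. All 9 Group9 cells of growing tumour 2 were of this kind, and no named Group9 clonotype was seen in a growing tumour with receptor labels. Most members of Group9 in a regressing tumour were thus cells of 1 clonotype, so the cell states below chiefly set a single clone beside the rest of its tumour.

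Among the 10 similarity groups, Group9 had rank 3 by the growing minus regressing difference in share, counted from the most negative. Group2 was at -25.15 percentage points and Group1 at -8.80, against -5.27 for Group9. By the share of its tumour cells that lay in regressing tumours, Group9 at 98.2% had rank 2 of the 9 groups with at least 20 tumour cells, after Group2 at 99.96%. The 2489 Group2 cells in regressing tumours were all in regressing tumour 3, whereas Group9 was found in both. Group9 had 2 named clonotypes with 2 distinct beta chains, and Group2 had 3 with 1 beta chain.

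Group9 cells of regressing tumour 2 lay more often in Highest Activated than the other labelled cells did. Highest Activated, one of 3 clusters that the authors named for activation, held 28.3% of Group9 cells (23.2 to 33.8, n = 290) and 12.02% of the other labelled cells of that tumour (n = 3893). Activated Exhausted held 26.6% of Group9 cells and 22.0% of the others, and Initial Activation 21.4% and 16.5%. Alternative Exhausted held 4.14% of Group9 cells and 11.9% of the others, and Intermediate Activation 6.55% and 11.5%. The IFN Stimulated cluster, named for the response to interferon, held 1.03% of Group9 cells and 6.04% of the others.

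Group9 cells of regressing tumour 3 were distributed differently. Highest Activated held 1.04% of Group9 cells there (n = 192) and 9.96% of the other labelled cells (n = 4748). Intermediate Activation held 30.2% of Group9 cells (23.8 to 37.2) and 9.84% of the others. Alternative Exhausted held 31.8% and 25.2%, Activated Exhausted 8.33% and 21.7%, and Initial Activation 6.77% and 12.7%. IFN Stimulated held 6.77% of Group9 cells and 6.11% of the others.

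The Group9 minus other difference had the same sign in both tumours for 4 of 13 clusters. Naive 1 differed by 0 in regressing tumour 2 and Naive 2 by 0 in regressing tumour 3, so neither could share a sign. Highest Activated differed by 16.3 percentage points in regressing tumour 2 and by -8.92 in regressing tumour 3, Intermediate Activation by -4.91 and 20.4, Activated Exhausted by 4.51 and -13.4, and Alternative Exhausted by -7.81 and 6.60. These 4 clusters, which held most Group9 cells, differed in opposite directions in the 2 tumours. For Highest Activated and Intermediate Activation the opposite signs held under all 6 other choices of cells compared. For Activated Exhausted the sign in regressing tumour 2 turned under 3 of these choices, to values from -7.23 to -1.62. For Alternative Exhausted the sign in regressing tumour 3 turned under 1, to -1.33 against cells of the other similarity groups. Only 2 libraries held at least 20 Group9 cells, so no test of a cluster was made and the intervals, which treat cells of 1 clone as separate, cover counting error only.

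**Figure D2:**
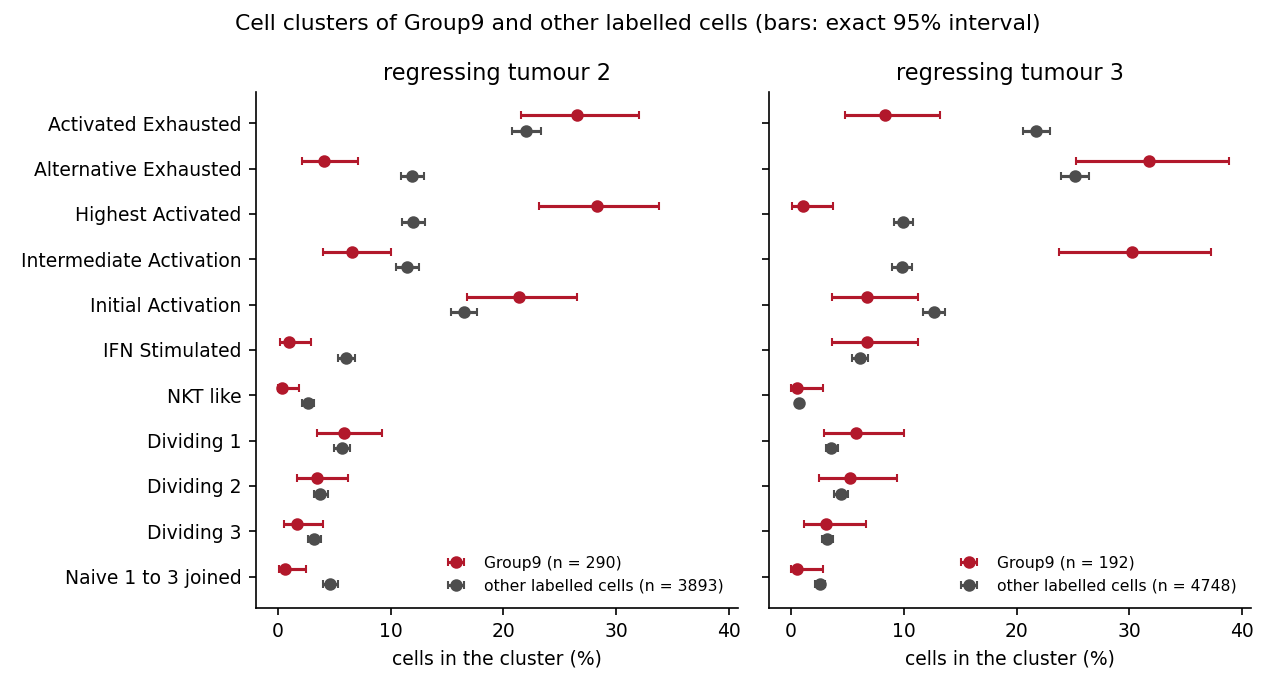
Percent of Group9 cells (red) and of other receptor-labelled cells (grey) in each cluster, with exact 95% intervals, in regressing tumour 2 (left) and regressing tumour 3 (right). Red lies right of grey for Highest Activated in tumour 2 (28.3% against 12.02%) and for Intermediate Activation in tumour 3 (30.2% against 9.84%).

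Joined by name, the 3 activation clusters held 56.2% of Group9 cells and 39.97% of other labelled cells in regressing tumour 2, and 38.0% and 32.5% in regressing tumour 3. The mean difference was 10.9 ± 7.55 percentage points (SD, n = 2). In regressing tumour 3 its sign depended on a single clone on either side. It was 5.57 percentage points as given, -6.18 without the largest clonotype among the other cells, and -6.37 without the named Group9 clonotype. In regressing tumour 2 the same values were 16.2, 14.0 and 8.18. The 3 naive clusters held 0.690% of Group9 cells and 4.68% of the others in regressing tumour 2, and 0.521% and 2.57% in regressing tumour 3. Against other cells of named clonotypes, of which 0.129% and 0.163% were naive, the sign turned in both tumours, with differences of 0.561 and 0.358. Against cells of the other similarity groups the differences were -0.502 and 0.128.

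Exhausted clusters held 30.7% of Group9 cells and 34.0% of other labelled cells in regressing tumour 2, and 40.1% and 46.9% in regressing tumour 3, a mean difference of -5.05 ± 2.48 percentage points (SD, n = 2). This direction was kept in both tumours under every planned choice of cells, but its size varied. The differences were -9.81 and -17.2 against cells of the other similarity groups, and -1.21 and -8.12 with comparison cells weighted to the Group9 depth. Of the 3051 cells of other groups in regressing tumour 3, 2489 were of Group2, with 61.95% in exhausted clusters. Group by group, Group9 had rank 5 of 6 from the top by exhausted share in regressing tumour 2 and rank 3 of 5 in regressing tumour 3. The direction turned in both tumours only when the largest other clonotype was left out. The largest other clonotype had 560 cells in regressing tumour 2 and 2137 cells in regressing tumour 3, and without it 1000 of 3333 other labelled cells lay in exhausted clusters in regressing tumour 2, and 860 of 2611 (32.9%) in regressing tumour 3. The differences were then 0.687 and 7.17 percentage points, a mean of 3.93. That setting was chosen after the values were seen.

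Counted clone by clone, Group9 lay near the middle for exhausted cells. In regressing tumour 2 the Group9 clone had 31.2% of its cells in exhausted clusters, rank 13 from the top among 22 clones, and the other 21 ran from 4.49% to 62.9% with a median of 32.8%. In regressing tumour 3 it had 39.6% of its cells there, rank 10 of 17, and the other 16 had a median of 43.2%. For the joined activation clusters the tumour 2 clone had rank 8 of 22 at 57.0%, where the other clones had a median of 43.2%. The tumour 3 clone had rank 9 of 17 at 39.6%, against a median of 38.9%. In single clusters they lay further out. The tumour 2 clone had rank 5 for Highest Activated at 28.1% and was the lowest of the 22 for IFN Stimulated at 1.14%, where the other clones ran from 2.38% upward with a median of 3.90%. The tumour 3 clone had rank 2 for Intermediate Activation at 31.4%, against a median of 10.9% over the other clones, and rank 16 of 17 for both Highest Activated at 1.18% and Activated Exhausted at 8.88%. Ranks among so few clones are given as a description.

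**Figure D3:**
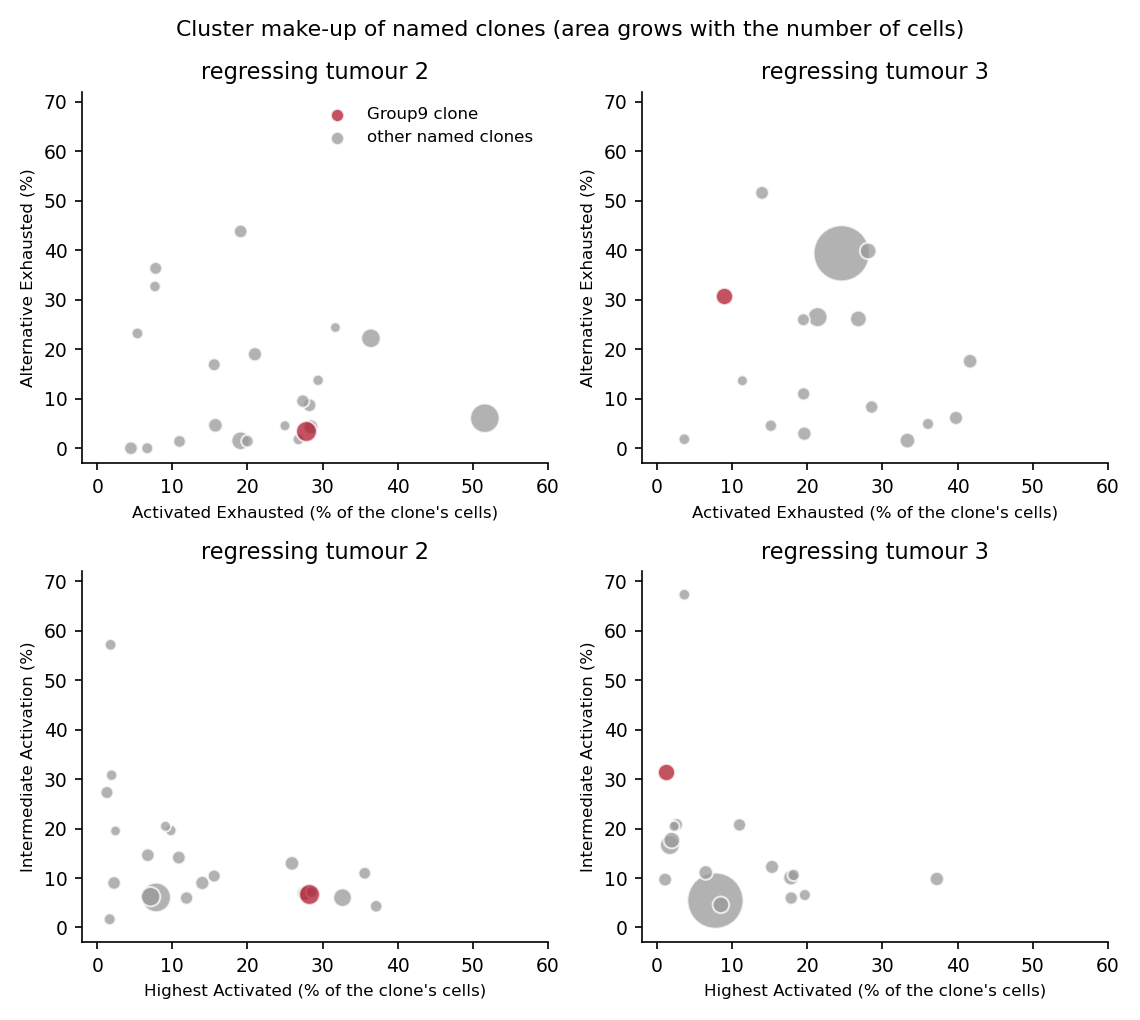
Each point is a named clone of at least 20 cells in regressing tumour 2 (left) or regressing tumour 3 (right), with its area growing with its number of cells; the upper row plots percent Alternative Exhausted against percent Activated Exhausted and the lower row percent Intermediate Activation against percent Highest Activated. The Group9 clone (red) is at 27.8% Activated Exhausted and 28.1% Highest Activated in tumour 2, and at 8.88% and 1.18% in tumour 3.

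Dividing cells differed little between Group9 and its tumours. Dividing 1 held 5.86% of Group9 cells and 5.68% of the others in regressing tumour 2, and 5.73% and 3.58% in regressing tumour 3. Dividing 2 held 3.45% and 3.78% in regressing tumour 2, and 5.21% and 4.42% in regressing tumour 3. The 3 Dividing clusters together held 11.03% of Group9 cells and 12.7% of the others in regressing tumour 2, and 14.1% and 11.2% in regressing tumour 3, and the intervals of Group9 covered the other value in both. The deposited phase calls put 66.6% of Group9 cells in G1, 27.2% in S and 6.21% in G2M in regressing tumour 2, where the other labelled cells had 65.5%, 25.3% and 9.27%. In regressing tumour 3 they put 67.2% in G1, 24.0% in S and 8.85% in G2M, and the other labelled cells had 63.5%, 26.6% and 9.90%. G2M calls were lower in Group9 in both tumours, with differences of -3.07 and -1.05 percentage points. Beside other named clones this was not so in regressing tumour 3. The Group9 clone there had 9.47% G2M calls, against a median of 9.45% over the others. In regressing tumour 2 it had 6.84%, against a median of 8.57%.

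Phase calls and clusters did not single out the same cells. Outside the Dividing clusters, 58 of 258 Group9 cells (22.5%) were called S in regressing tumour 2, against 20.7% of the others, and 29 of 165 (17.6%) in regressing tumour 3, against 23.9%. An S call alone is therefore not read as a cycling cell. Within the Dividing clusters, S was called in 65.6% of 32 Group9 cells and 56.9% of the others in regressing tumour 2, and in 63.0% of 27 Group9 cells and 48.0% of the others in regressing tumour 3.

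Depth differed less between Group9 and its tumour than between the tumours. The median was 5148 UMIs per Group9 cell and 5338 per other labelled cell in regressing tumour 2, and 8206 and 7138 in regressing tumour 3. The median percent of UMIs from mitochondrial genes was 2.03 and 2.02 in regressing tumour 2, and 1.78 and 1.75 in regressing tumour 3. Within clusters that held at least 10 Group9 cells, the ratio of Group9 to other median UMIs ran from 0.736 for Dividing 2 to 1.29 for Alternative Exhausted, both in regressing tumour 3.

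Inside Group9, cells without a clonotype name had more UMIs than the named clone of the same tumour. The medians were 8401 UMIs in 27 cells without a name and 4863 in 263 named cells of regressing tumour 2, and 11201 in 23 and 7812 in 169 of regressing tumour 3. The ratios were 1.73 and 1.43. The gap was as large outside the Dividing clusters, at ratios of 1.77 and 1.47. In the other similarity groups, cells without a name had the higher median in 4 of 13 pairs of group and tumour, with ratios from 0.593 to 1.52. In regressing tumour 2 the ratios were 1.17 for Group1, 1.52 for Group3, 1.19 for Group4 and 0.954 for Group8, so a higher median was not particular to Group9 there. In regressing tumour 3 they were 0.842 for Group1 and 0.701 for Group2. The 9 Group9 cells of growing tumour 2, all without a name, had a median of 10643 UMIs, and the other labelled cells there had 7532.

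**Figure D4:**
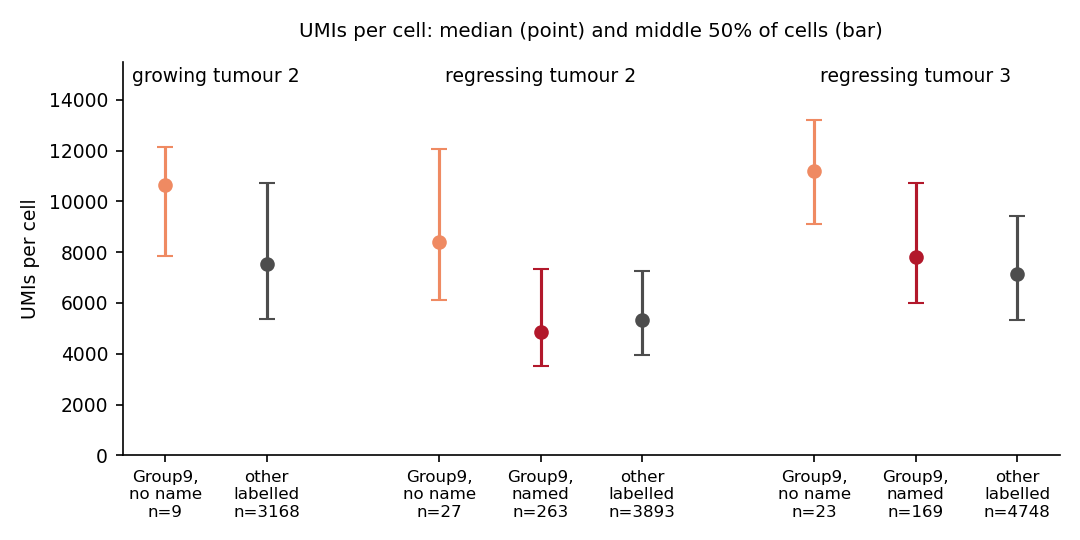
Median UMIs per cell (points) and the middle 50% of cells (bars) for Group9 cells without a clonotype name, Group9 cells of the named clone, and other labelled cells, in growing tumour 2 and regressing tumours 2 and 3. Cells without a name stand highest in each library, at 10643, 8401 and 11201 UMIs.

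Few Group9 cells lacked a name, and their states carry wide intervals. Activation clusters held 13 of 27 such cells (48.1%, 28.7 to 68.1) and 57.0% of the named clone in regressing tumour 2, and 6 of 23 (26.1%, 10.2 to 48.4) and 39.6% in regressing tumour 3. G2M was called in 0 of the 27, which allows up to 11.1%, and in 6.84% of the named clone in regressing tumour 2, and in 1 of the 23 and 9.47% in regressing tumour 3. Highest Activated held 8 of 27 such cells (29.6%, 13.8 to 50.2) and 28.1% of the named clone in regressing tumour 2, and Intermediate Activation held 5 of 23 (21.7%, 7.46 to 43.7) and 31.4% in regressing tumour 3. Dividing clusters held 4 of 27 (14.8%) and 10.7% of the named clone in regressing tumour 2, and 5 of 23 (21.7%) and 13.02% in regressing tumour 3. Of the 9 cells in growing tumour 2, 3 were in exhausted clusters, 4 in Dividing clusters and 2 in Intermediate Activation, and 4 were called G1, 4 S and 1 G2M. Dividing cells were 44.4% of them (13.7 to 78.8) and 20.2% of the other labelled cells of that tumour, a difference within the counting interval.

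In spleens, Group9 was found almost wholly in 1 library. Regressing spleen 2 held 67 Group9 cells among 4202 labelled cells (1.59%, 1.24 to 2.02). Regressing spleen 3 held 1 of 4141 (0.0242%), and growing spleen 3 held 1 of 2736 (0.0366%). Tumour minus spleen came to 5.34 percentage points for the regressing pair numbered 2, to 3.86 for the regressing pair numbered 3, and to -0.0366 for the growing pair. The mean of the 3 pairs was 3.06 ± 2.78 (SD, n = 3), with the tumour higher in 2 of 3 pairs. The two-sided exact sign-flip test gave p = 0.5, where 0.25 is the smallest value that 3 pairs allow. The mean was 1.91 without the regressing pair numbered 2, 1.76 as a share of all cells and 1.35 as a share of cells outside the naive clusters. As a share of cells in any similarity group, a denominator added after the values were seen, it turned to -1.18. Group9 was then 15.4% in regressing tumour 2 and 20.2% in regressing spleen 2, 5.92% in regressing tumour 3 and 0.263% in regressing spleen 3, and 0 of 660 cells in growing tumour 3 and 1 of 23 in growing spleen 3. The higher share in the tumour of replicate 2 thus held among labelled cells and not among cells with a similarity group.

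Splenic Group9 cells of replicate 2 were mostly of clonotypes that the authors pooled as top spleen clonotypes. Of the 67, 58 carried that label (86.6%, 76.0 to 93.7), and they made up 58 of the 310 cells with it in that library. In regressing spleen 3, 1 of 396 cells so labelled was in Group9. The spleen labels give no CDR3, so whether the 58 cells carry the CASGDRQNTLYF receptor of the same-numbered tumour could not be read. Regressing tumour 2 and regressing spleen 2 shared 59 cell barcodes, and 0 barcodes were labelled Group9 in both.

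Splenic Group9 cells of replicate 2 were seldom naive, and so were the other top spleen clonotypes described below. The naive clusters held 7.46% of them (2.47 to 16.6, n = 67) and 61.1% of the other labelled cells of that spleen (n = 4135). Intermediate Activation held 38.8% of Group9 cells (27.1 to 51.5) and 10.6% of the others, Initial Activation 26.9% and 3.39%, Alternative Exhausted 19.4% and 1.98%, and Activated Exhausted 5.97% and 2.999%. Naive 1 held 2.99% and 14.03%, Naive 2 2.99% and 21.6%, and Naive 3 1.49% and 25.5%. The exhausted clusters together held 25.4% of Group9 cells (15.5 to 37.5) and 4.98% of the others. Highest Activated held 0 of 67 Group9 cells, which allows up to 4.48%, against 9.65% of the others. The Dividing clusters also held 0 of 67 and 3.27% of the others, a difference not detectable at this number of cells.

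Against the tumour of the same number, splenic Group9 cells lacked the cluster that led in the tumour. Highest Activated held 28.3% of Group9 cells in regressing tumour 2 and 0 of 67 in regressing spleen 2, while Intermediate Activation held 6.55% in the tumour and 38.8% in the spleen. Exhausted clusters held 30.7% in the tumour, mostly in Activated Exhausted, and 25.4% in the spleen, mostly in Alternative Exhausted. Dividing clusters held 11.03% in the tumour and 0 of 67 in the spleen, where up to 4.48% is allowed. G1 was called in 66.6% of Group9 cells in the tumour and 80.6% in the spleen. Median UMIs were 5148 in the tumour and 3828 in the spleen. This is 1 pair of libraries, so no test was made.

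Set against other top spleen clonotypes of regressing spleen 2, the 58 Group9 cells had a lower share in exhausted clusters and a higher share in activation clusters. The exhausted clusters held 25.9% (15.3 to 39.0) of the 58 and 46.0% of the other 252, and the activation clusters 70.7% (57.3 to 81.9) and 44.0%. Dividing clusters held 0 of the 58, which allows up to 5.17%, and 6.75% of the others (3.98 to 10.6). Together the exhausted, activation and Dividing clusters held nearly all of the other 252 cells, so few of those were naive either. The single Group9 cell of regressing spleen 3 was in Intermediate Activation with an S call, and that of growing spleen 3 was in Dividing 2 with a G2M call.

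**Figure D5:**
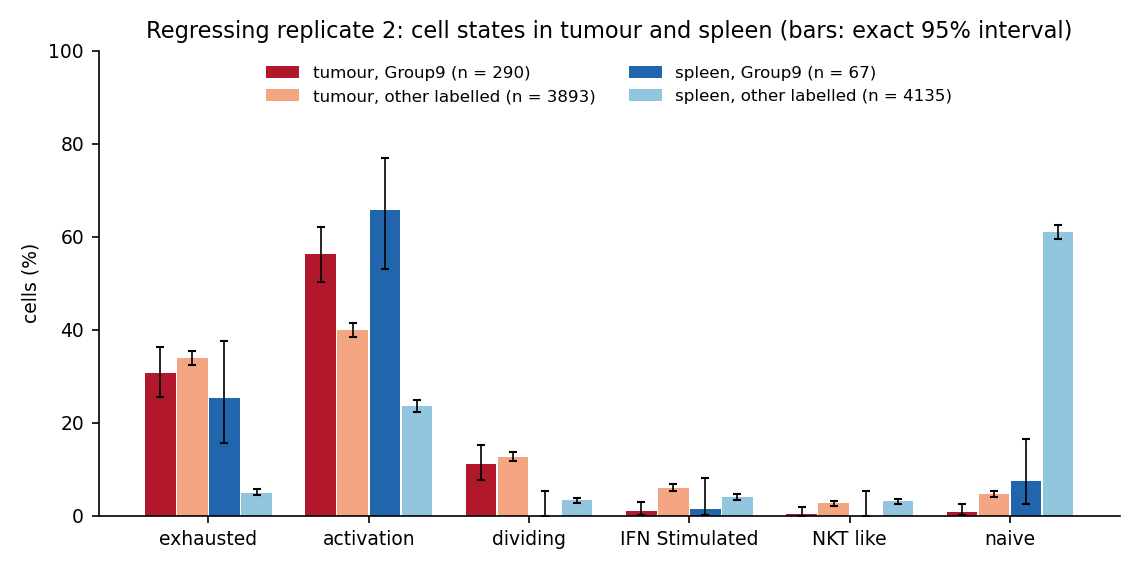
Percent of cells in joined clusters for Group9 and other labelled cells of regressing tumour 2 (reds) and regressing spleen 2 (blues), with exact 95% intervals. For the joined exhausted (25.4%) and activation (65.7%) clusters, Group9 spleen cells stand nearer to the Group9 tumour cells than to the other spleen cells. The single clusters joined here differed between tumour and spleen. Group9 spleen cells stand away from the other spleen cells for naive (7.46% against 61.1%).

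Facts of the libraries bear on these shares. Receptor labels covered from 53.4% to 75.04% of cells in the 7 libraries that have them, and their labelled cells had medians of 4566 to 11272 UMIs. Regressing tumour 2, with the highest Group9 share, had the lowest coverage by labels. Of 40102 distinct barcodes, 988 occurred in at least 2 libraries, and 35 Group9 cells had a barcode that also occurred elsewhere. Doublets were neither called nor removed here, and 13 Group9 cells of the regressing tumours had more than 3 times the median UMIs of their library, as did 142 of all labelled cells there. The part of coverage, depth and doublets in the shares was not tested. Expression of single genes per cell was not used here, so cluster names are the authors' and were not checked against marker genes.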

How the data were processed

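Per the submitters' processing notes, single-cell reads were processed with Cell Ranger, whose version and genome build are not given in the sources used here. UMIs and genes of each cell were deposited as a raw count, with no scaling by the authors visible in the values. The percent of mitochondrial UMIs was deposited by the authors per cell. The S and G2M score are, per the file headers, cell-cycle scores of the authors, and the deposited phase call followed from them in 100% of Group9 cells. Cluster names, clonotype labels and similarity groups are the authors' own.

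Shares were computed per library (pandas 2.3.3, scipy 1.17.1), with the library as replicate and exact Clopper-Pearson 95% intervals. A share at 0 is given with the limit set by 3 counts. Exact two-sided tests compared growing with regressing tumours and tumours with same-numbered spleens. Cell states were compared within tumours holding at least 20 Group9 cells. With 2 such tumours they are values without a test, and no comparison ran across genes. The interval calculation was tested on simulated data. All clonotypes with at least 5 Group9 cells were named, as were clusters holding 5% or more of either set of cells in regressing tumours 2 and 3 and regressing spleen 2. Exhausted joins Activated and Alternative Exhausted; activation joins Initial and Intermediate Activation and Highest Activated. The cells, the joined clusters and the comparisons were chosen with earlier results of these data known. The comparison without the largest other clonotype, the tumour and spleen shares of cells in any similarity group, the comparison by clonotype name and the ranks of clones were added after the values were seen. Alternatives were other comparison cells, denominators, UMI weighting, clonotypes counted once or left out, a replicate block, and single libraries left out.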

Additional observations from a re-analysis of the deposited data

Results flagged for a closer look

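Tumour minus spleen in the Group9 share of labelled cells was -0.0366 percentage points in growing replicate 3, while both regressing pairs had the tumour higher, by 5.34 and 3.86. The growing value rests on 0 of 1296 tumour cells and 1 of 2736 spleen cells, and the difference between states was not tested.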

How the results depend on the processing

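The lower Group9 share in growing than in regressing tumours kept its direction under every alternative run, with differences from -10.4 to -2.15 percentage points. Group9 was chosen with this lean already known, so the kept direction adds no support to it. The run without the largest Group9 clonotype left out the tumour 2 clone but kept the tumour 3 clone. Group9 cells without a name were 0.283% of labelled cells (0.130 to 0.537) in growing tumour 2 and 0 of 1296 in growing tumour 3. They were 0.646% (0.426 to 0.938) in regressing tumour 2 and 0.466% (0.295 to 0.698) in regressing tumour 3. Most of the difference thus lay in 1 named clone per regressing tumour. With same-numbered tumours as a replicate block the growing minus regressing share was -5.27 percentage points (exact sign-flip p = 0.5, the smallest that 2 pairs allow). The numbers are not said to mark a shared animal or day, and deviations of same-numbered tumours over the 13 clusters correlated at -0.0365. The tumour minus spleen share, 3.06 as given, was -1.18 as a share of cells in any similarity group, a setting added after the values were seen.

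The values that follow are mean Group9 minus other differences over regressing tumours 2 and 3, in percentage points for shares. Against cells of the other similarity groups, exhausted was -13.5, naive -0.187, G1 4.36, the mitochondrial percent 0.0804 and the G2M score -0.00804. Against other named clonotypes, exhausted was -12.3, naive 0.459, the mitochondrial percent 0.0859 and the G2M score -0.00749. Without the largest other clonotype, a setting added after the values were seen, exhausted was 3.93, naive -4.42, the mitochondrial percent -0.0320 and the G2M score -0.00884. Without the largest Group9 clonotype, which leaves 27 and 23 cells, dividing was 6.32, naive 0.0814, activation 0.905, G1 5.17, G2M -7.41, median UMIs 3562.8, median genes 599.2 and the G2M score -0.00637. With comparison cells weighted to the Group9 depth the G2M score was -0.00880. With each Group9 clonotype counted once, which left only the named clone of each tumour, the mitochondrial percent was 0.00408. The cause of these shifts was not tested. Leaving out 1 regressing tumour leaves the value of the other, so it adds nothing to the values per tumour. With single libraries left out, the number of named clonotypes ran from 1 to 2 and the largest clonotype from 46.96% to 71.5% of Group9 cells. The weighting was not run for median UMIs, and a minimum of 10 in place of 20 Group9 cells gave the same 2 tumours. The 9 Group9 cells of the growing tumours are too few for a comparison of states.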
